A study of Homo sapiens with 6 samples.

Results

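The comparison described here set input RNA of METTL16 knockdown cells starved of amino acids against input RNA of the same knockdown cells in complete medium. The genes described were those with a mean of at least 30 raw counts over the 3 input libraries, which held for 3876 of the 60648 genes in the count table. Of these, 3772 were nuclear protein-coding genes and 104 were of other kinds. The choice used no ratio, but it used the raw counts of both compared libraries. A gene could therefore pass through the library where it was high. The complete medium library was the deepest of the input libraries, and no correction was made for this.

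The cells were of the A549 line, which derives from a human lung adenocarcinoma, a form of non-small cell lung cancer. They carried a stable shRNA against METTL16 or a control shRNA. The series holds 6 libraries, an input library and a ribosome footprint library for each of 3 conditions: control shRNA with amino acid starvation, METTL16 shRNA with amino acid starvation, and METTL16 shRNA in complete medium. Medium was applied for 2 h, and every group, the complete medium group included, was also given cycloheximide, an inhibitor of translation elongation, for 5 min. Input RNA is total RNA that was fragmented chemically, so it reports RNA levels, whereas footprints are the RNA pieces that ribosomes protect from RNase I.

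There was 1 library on each side, and the number of shRNAs or clones behind the knockdown cells is not given in the sources used here. All values are therefore differences between 2 libraries, with 95% intervals that cover counting error only and no p-values. A control shRNA library in complete medium was not analysed here, so nothing below separates starvation in knockdown cells from starvation in control cells. The starved control input library is given as a level beside the others and did not enter any ratio.

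METTL16 is an RNA methyltransferase that modifies U6 small nuclear RNA and hairpins in the MAT2A mRNA, which encodes the enzyme that makes S-adenosylmethionine. Amino acid shortage is known to act along 2 main routes. Uncharged tRNAs activate the kinase GCN2, which favours translation of ATF4, a transcription factor for amino acid transporters and synthesis enzymes. Loss of amino acids at the lysosome turns off mTORC1, which holds back the translation of mRNAs that start with a run of pyrimidines (TOP mRNAs), above all those of ribosomal proteins.

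The input libraries held 465303 counts in starved knockdown cells, 775676 in complete medium and 537558 in starved control cells. METTL16 (chr17:2415715-2511888, GRCh38) had 9 counts in starved knockdown cells, 19 in complete medium and 44 in starved control cells, or 19.8, 25.4 and 77.0 CPM (scaled counts relative to library size). Both knockdown libraries lay below the control library, and METTL16 itself did not reach the minimum of counts. Its log2 ratio of starved to complete medium was −0.31 with an interval from −1.68 to 0.86. The epithelial keratins KRT7, KRT8 and KRT18 had 283 to 784 counts in the knockdown inputs, whereas the lung epithelial factor NKX2-1 and the surfactant gene SFTPB had 0 in all 3 inputs. EPCAM had 0 counts in starved knockdown cells and 7 in complete medium, CLDN4 0 and 1, and KRT19 10 and 11. No fibroblast, leukocyte or erythroid marker reached the minimum.

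A gene was called higher or lower when it differed at least 2-fold and its interval excluded a log2 ratio of 0. By this rule 117 genes were higher in starved cells, 3.02% of those measured, and 161 were lower, 4.15%. Without the 2-fold limit, 680 of the 3876 genes had an interval above 0 and 723 an interval below 0. These are the shares beside which the counts of each list below are to be read. Among nuclear protein-coding genes the counts were 105 and 155. The median log2 ratio of all genes was 0.01, and the middle 80% of genes lay between −0.74 and 0.70. Ratios ran from −2.82 for MARVELD1 to 2.66 for PIM1. In these bulk libraries fewer RNA molecules per cell and fewer cells holding them cannot be told apart, and all ratios are relative to the counted RNA of a library. Of 24 epithelial markers 7 were measured, with a median log2 ratio of −0.71. Of these, 3 had an interval above 0 and 4 an interval below 0. The 3 above 0 were the keratins KRT7, KRT8 and KRT18. KRT7 had 772 counts in starved knockdown cells and 784 in complete medium, KRT8 495 and 708, and KRT18 283 and 374. ABCA3, with 31 counts in starved knockdown cells and 104 in complete medium, and LPCAT1, with 37 and 128, were called lower, and MUC5AC had 62 and 204 and CDH1 108 and 293. With total-count scaling or a pseudocount of 2 in place of 0.5 the number called lower was 1. The part of these markers in the results was not tested.

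The counts behind these calls were small. The median gene had 45 counts in starved cells and 74 in complete medium, and its interval was 1.14 log2 units wide. Genes were ranked by counts and cut into 4 groups of like size, and the median width was 1.52 in the lowest group and 0.66 in the highest. Of the calls, 50 higher and 46 lower came from the lowest group and 15 higher and 33 lower from the highest. The firmest calls, with the whole interval past 2-fold, were 11 higher and 15 lower genes.

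**Figure D1:**
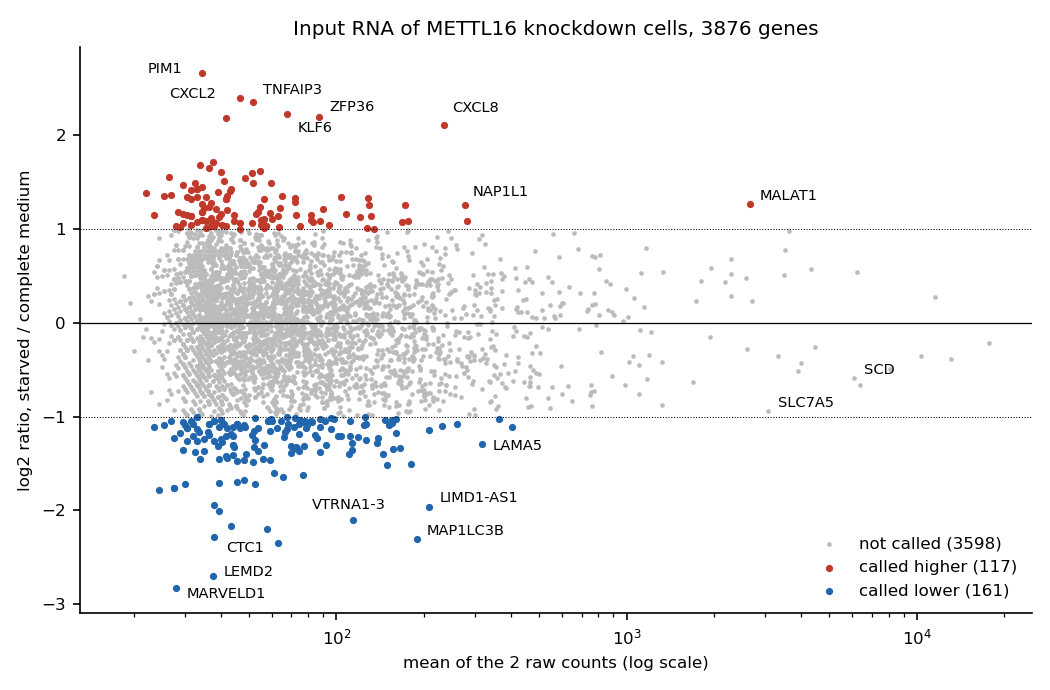
Log2 ratio of TMM-scaled counts, starved over complete medium, against the mean of the 2 raw counts (log scale) for the 3876 genes measured in input RNA of METTL16 knockdown cells. Red points are the 117 genes called higher and blue points the 161 called lower; dotted lines mark 2-fold, and the highest ratios belong to PIM1, CXCL2 and TNFAIP3.

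The 7 genes that rose 4-fold or more were PIM1, CXCL2, TNFAIP3, KLF6, ZFP36, PROC and CXCL8. PIM1, a serine/threonine kinase induced by cytokines (chr6:37170152-37175428), had 55 counts in starved knockdown cells, 14 in complete medium and 51 in starved control cells. Both starved libraries stood above complete medium, and the log2 ratio in the knockdown cells was 2.66 (interval 1.83 to 3.66), a 6.32-fold difference. CXCL8, the neutrophil chemokine interleukin-8 (chr4:73740569-73743716), had 340, 130 and 256 counts in the same order, a log2 ratio of 2.11 (1.81 to 2.41). It had the most counts of these 7 genes.

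CXCL2, a related chemokine (chr4:74097040-74099195), had 71 counts in starved knockdown cells, 22 in complete medium and 76 in starved control cells, a log2 ratio of 2.39 (1.71 to 3.17). TNFAIP3, which encodes the deubiquitinase A20 that restrains NF-kB signalling (chr6:137866349-137883312), had 78, 25 and 32 counts and a log2 ratio of 2.35 (1.70 to 3.08). Here the starved control library, at 56.0 CPM, lay nearer to complete medium at 33.4 CPM than to starved knockdown cells at 172 CPM. KLF6, a zinc finger transcription factor of the immediate early class (chr10:3775996-3785209), had 100, 35 and 65 counts and a log2 ratio of 2.22 (1.67 to 2.84).

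ZFP36 encodes tristetraprolin, a protein that binds AU-rich elements and directs mRNAs such as those of cytokines to decay (chr19:39406847-39409407). It had 128 counts in starved knockdown cells, 46 in complete medium and 149 in starved control cells, a log2 ratio of 2.19 (1.70 to 2.72). Its relative ZFP36L1 also rose, with 199, 155 and 275 counts and a log2 ratio of 1.08 (0.77 to 1.40). Of the list of mRNA decay factors 9 members were measured: these 2 rose, and TOB1, an adaptor of the CCR4-NOT deadenylase, fell, with 35 counts against 121. The list's median was 0.58 beside 0.01 for all genes.

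**Figure D2:**
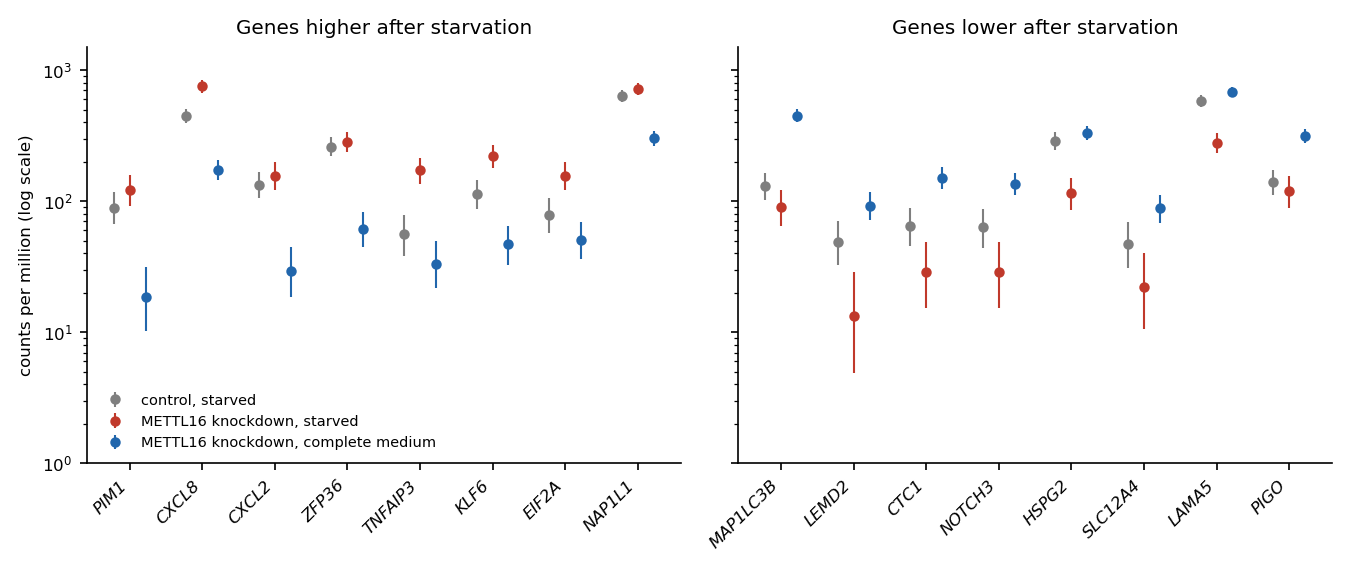
Scaled counts relative to library size (CPM, log axis) of 8 genes called higher (left) and 8 called lower (right) in the 3 input libraries, with exact 95% Poisson intervals for each count. In the left panel the starved knockdown library lies above complete medium for every gene, and for every gene on the right under it. The order of the 2 knockdown libraries follows from the calls. The starved control library lies between them for all 16 genes, which are a selection of the called genes. It does not for all called genes: it lies above both for PROC, at 163 beside 134 and 29.4 CPM. It lies under both for AC084082.3, at 59.5 beside 139 and 398 CPM.

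NF-kB is a family of dimeric transcription factors that inhibitor proteins hold in the cytosol until a signal frees them, and several of its best known targets feed back on it. The list of NF-kB targets and cytokines had 19 measured members of 30. Of these 5 rose, none fell, and 10 had an interval above 0. The list's median log2 ratio was 0.50. The chemokines CXCL8, CXCL2 and CXCL3 rose, together with TNFAIP3 and BIRC3, an inhibitor of apoptosis that works as a ubiquitin ligase. CXCL3 had 50 counts in starved knockdown cells, 33 in complete medium and 92 in starved control cells, a log2 ratio of 1.32 (0.66 to 2.00). BIRC3 had 153, 106 and 161 counts and a log2 ratio of 1.25 (0.89 to 1.62).

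Below the 2-fold limit but with intervals above 0 were SOD2, the mitochondrial superoxide dismutase, at 0.98 (0.68 to 1.30), NFKBIA, the inhibitor IkB-alpha, at 0.90 (0.55 to 1.26), and CXCL1 at 0.67 (0.36 to 0.97). The subunit genes did not stand apart: NFKB1 and NFKB2 both had a log2 ratio of 0.01. ICAM1, an adhesion molecule, was the lowest member at −0.70 (−1.50 to 0.00). CXCL1, CXCL2 and CXCL3 are close copies of each other, so the division of short reads among them is uncertain. Of the 11 members below the minimum, IL6 had 27 counts against 7 and IL1A 10 against 0, whereas TNIP2 had 8 against 25, NFKBIE 7 against 19, TRAF1 3 against 10 and IRF1 12 against 24.

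Promoters of these genes are shown because the list was drawn up by a transcription factor whose binding motif can be looked for. The motif searched was GGNNTTTCC on both strands, in the window from 250 bases before to 50 after the RefSeq start (GRCh38.p14). The 41 bases around a match follow, 5′ to 3′ on the gene's strand, with the matched letters in capitals.
CXCL8, chr4:73740462-73740502, plus strand: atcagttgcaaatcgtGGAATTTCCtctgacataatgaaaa
CXCL2, chr4:74099248-74099288, minus strand: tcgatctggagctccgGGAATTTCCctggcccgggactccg
CXCL3, chr4:74038743-74038783, minus strand: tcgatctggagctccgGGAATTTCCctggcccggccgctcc
CXCL1, chr4:73869299-73869339, plus strand: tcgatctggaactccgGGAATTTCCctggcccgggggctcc
TNFAIP3, chr6:137867188-137867228, plus strand: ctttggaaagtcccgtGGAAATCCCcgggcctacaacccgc
BIRC3, chr11:102317269-102317309, plus strand: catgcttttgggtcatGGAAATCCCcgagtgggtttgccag

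The 4 chemokine promoters held the same 9 matched letters, and the windows of CXCL1, CXCL2 and CXCL3 were nearly the same over their whole length. In TNFAIP3 and BIRC3 the match lay on the opposite strand. The match began 91 bases before the start in CXCL8, 77 in CXCL2 and 199 in BIRC3. CXCL2, CXCL3 and CXCL1 each held another match, 53 bases before the start, and TNFAIP3 another 67 bases before it. The promoter table uses 1 RefSeq start per gene, and for TNFAIP3 that start lies inside the gene span given above, so the window does too.

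Among the 15 measured members of the list with a promoter in the RefSeq table, 12 (80.0%) held the motif. It was present in 12.6% of the 87 promoters of protein-coding genes that rose, 6.72% of the 134 of genes that fell, 7.30% of the 3125 of all protein-coding genes measured, and 6.26% of the 27305 promoters of the table. The 228 measured genes with the motif had a median log2 ratio of 0.05, against 0.01 for those without it. Most genes that carry these letters were thus near the middle of all genes, and a match is not a binding site.

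Immediate early genes are transcribed within minutes of a stimulus without new protein synthesis. Of 30 listed, 16 were measured. KLF6, BHLHE40 and ERRFI1 rose, none fell, and the median was 0.41. BHLHE40, a basic helix-loop-helix repressor, had 93 counts in starved knockdown cells, 73 in complete medium and 94 in starved control cells, a log2 ratio of 1.07 (0.61 to 1.53). ERRFI1, a feedback inhibitor of the EGF receptor, had 64, 49 and 106 counts and a log2 ratio of 1.10 (0.55 to 1.68).

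The AP-1 genes were less far from 0. JUND had a log2 ratio of 0.51 (0.10 to 0.92) and FOSL1 0.69 (0.07 to 1.31), whereas FOSL2 was at −0.35 (−0.68 to −0.03). JUN was at 0.33 (−0.40 to 1.03) and JUNB at 0.50 (−0.35 to 1.34). MYC, an immediate early gene outside AP-1, was at −0.30 (−0.74 to 0.11). The classical immediate early genes FOS and EGR1 were below the minimum. FOS had 4 counts in starved knockdown cells and 5 in complete medium, and EGR1 had 1 in each, beside 42 in starved control cells. Among feedback phosphatases of MAP kinases, DUSP1 was at 0.74 (0.35 to 1.13) and DUSP5 at 0.57 (0.16 to 0.98), both short of 2-fold. DUSP4 was at 0.07 (−0.15 to 0.30) and DUSP16 at −0.38 (−0.90 to 0.11).

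The measured members of the ATF4 programme, the textbook response to amino acid shortage, did not move in 1 direction. Of 24 measured members of 38, PPP1R15A rose, SLC7A1 and HERPUD1 fell, and the median was −0.09. Members below the minimum could not be read. Among them ASNS had 1 count in starved knockdown cells and 0 in complete medium, DDIT3 3 and 2, and ATF3 2 and 2. SESN2 had 6 and 3, CHAC1 2 and 9, and PHGDH 13 and 31. PPP1R15A encodes GADD34, the regulatory subunit that brings protein phosphatase PP1 to eIF2-alpha. It had 63 counts in starved knockdown cells, 49 in complete medium and 72 in starved control cells, a log2 ratio of 1.08 (0.52 to 1.65). GDF15, a stress cytokine, was at 0.81 (0.42 to 1.20), the pseudokinase TRIB3 at 0.62 (0.11 to 1.12) and the transcription factor CEBPB at 0.60 (0.04 to 1.15). ATF4 itself had 79 counts against 117, a log2 ratio of 0.16 (−0.27 to 0.58).

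The amino acid transporters of the list lay below 0. All 6 measured solute carriers in the ATF4 list had intervals below 0, a split made after the values were seen. The other 18 members had a median of 0.11, with 4 intervals above 0 and 3 below. Over all 3876 genes 680 intervals lay above 0 and 723 below. SLC7A5 is the light chain of the large neutral amino acid transporter LAT1. It had 1471 counts in starved knockdown cells, 4669 in complete medium and 2864 in starved control cells, a log2 ratio of −0.94 (−1.03 to −0.86). Its partner SLC3A2 had 391, 1105 and 637 counts, a ratio of −0.77 (−0.95 to −0.61). SLC7A1, the cationic amino acid transporter CAT-1, fell past 2-fold, with 60, 254 and 84 counts and a log2 ratio of −1.35 (−1.79 to −0.95).

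Over the list of amino acid transporters 11 of 23 members were measured, 1 fell, none rose, and 2 lay above 0. The median was −0.58, and 8 intervals lay below 0. SLC38A2, the glutamine and alanine carrier SNAT2, was at −0.58 (−0.79 to −0.37), and SLC7A11, the cystine carrier, at −0.46 (−0.67 to −0.26). The 2 members above 0 were SLC36A4 at 0.34 and SLC6A15 at 0.29, whose intervals spanned 0. The tRNA synthetases, which charge tRNAs with amino acids and include ATF4 targets, had a median of 0.21 over 19 measured members, with NARS1 highest at 0.92 (0.40 to 1.45) and VARS1 called lower at −1.20 (−1.99 to −0.52).

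**Figure D3:**
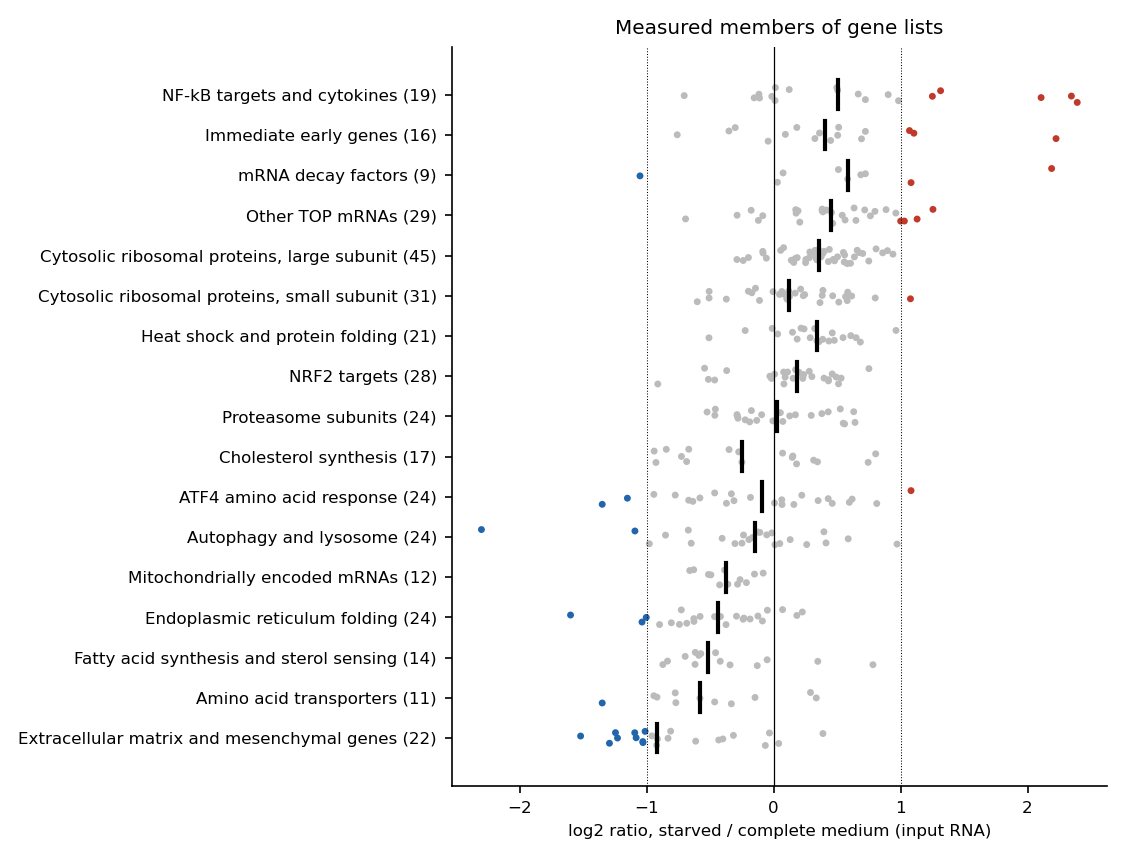
Log2 ratio of input RNA, starved over complete medium, for the measured members of 17 gene lists, with the number measured in brackets. Each point is a gene (red called higher, blue called lower, grey neither), black bars are medians and dotted lines mark 2-fold; NF-kB targets and immediate early genes reach furthest to the right, with highest members at 2.39 and 2.22, and matrix genes have the lowest median.

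Ribosomal protein and other TOP mRNAs made up a larger share of input RNA after starvation, mostly by less than 2-fold. Of 45 measured large subunit genes 39 lay above 0, with a median of 0.35 and 31 intervals above 0, and none was called. Of 31 small subunit genes 22 lay above 0, with a median of 0.12, and RPS12 rose, with 316 counts in starved knockdown cells, 247 in complete medium and 327 in starved control cells. Its log2 ratio was 1.08. Of 29 other TOP mRNAs 24 lay above 0 and 4 rose: NAP1L1, NACA, CCNI and EIF3E. The median was 0.46, and with DESeq2 size factors 2 of the 4 still passed 2-fold.

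NAP1L1, a histone chaperone (chr12:76036585-76084685), had 327 counts in starved knockdown cells, 226 in complete medium and 363 in starved control cells, a log2 ratio of 1.25 (1.01 to 1.51). NACA, a subunit of the nascent polypeptide-associated complex, had 150, 113 and 140 counts and a ratio of 1.13, with an interval that started at 0.77. Elongation factors EEF2 and EEF1A1 were at 0.80 (0.68 to 0.92) and 0.72 (0.58 to 0.86). The exceptions included LGALS1, a lectin, at −0.69 (−1.11 to −0.30).

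The starts of these genes are shown because the TOP feature lies in the first bases of the mRNA. Each line gives 24 bases, 12 on either side of the RefSeq start (GRCh38.p14, 5′ to 3′ on the gene's strand), with the pyrimidine run from the start in capitals.
RPS12, chr6:132814557-132814580, plus strand: tgcggatgaggcCTCTTTCCCTgc
NAP1L1, chr12:76084674-76084697, minus strand: gggctcttgggtCTTTTTTagcgc
NACA, chr12:56725288-56725311, minus strand: ctctcgctcggtCTTTCTgccgcc
CCNI, chr4:77075978-77076001, minus strand: ccctctcttcccCTCCCTCCCCag
EEF1A1, chr6:73521021-73521044, minus strand: gccgtgaacgttCTTTTTCgcaac
RPL36AL, chr14:49620615-49620638, minus strand: tttcttccctttCCTgttaggcga

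The run was 10 bases long in RPS12 and CCNI, 7 in NAP1L1 and EEF1A1, and 6 in NACA. RPL36AL, a ribosomal protein gene copy that rose with 66 counts against 36, had a run of 3. A start of C followed by 4 pyrimidines, read on the sense strand, was present in 66.7% of 36 large subunit genes, 72.0% of 25 small subunit genes and 80.0% of 20 other TOP genes. It was present in 7.20% of all measured protein-coding genes with a promoter. The 225 genes with such a start had a median log2 ratio of 0.16 and the 2900 without it 0.00. RefSeq gives 1 start per gene here, which need not be the one used in A549 cells.

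Footprints of the same mRNAs went the other way. In footprints, which are separate libraries from the same conditions, 185 of 3431 genes were called higher (5.39%) and 231 lower (6.73%). The median footprint log2 ratio was −1.22 over 40 measured large subunit genes, −1.32 over 28 small subunit genes and −1.16 over 26 other TOP genes. NAP1L1 had 55 footprint counts in starved knockdown cells and 179 in complete medium, a log2 ratio of −1.26 (−1.73 to −0.83). For these genes input and footprints thus lay on opposite sides of 0.

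EIF2A showed the same contrast outside the ribosomal genes. This factor, an initiator tRNA binding protein distinct from the subunits of eIF2 (chr3:150546787-150586016), had 71 input counts in starved knockdown cells, 38 in complete medium and 45 in starved control cells. The input log2 ratio was 1.62 (1.04 to 2.23). Its footprints numbered 18 in starved knockdown cells against 67 in complete medium, a log2 ratio of −1.43 (−2.30 to −0.69). The other 20 measured members of the initiation factor list were not called in input RNA, and the list's median was 0.18.

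Of all 47 lists, the one of matrix and mesenchymal genes had the most members called lower. It had 22 measured members of 39, of which 9 fell and none rose. Its median was −0.92, and 17 intervals lay below 0. HSPG2, the basement membrane proteoglycan perlecan (chr1:21822244-21937310), had 52 counts in starved knockdown cells, 248 in complete medium and 165 in starved control cells, a log2 ratio of −1.52 (−1.99 to −1.09). LAMA5, a laminin chain (chr20:62309065-62367312), had 126, 511 and 333 counts and a ratio of −1.29 (−1.59 to −1.01). For these 2 genes the starved control library lay close to complete medium in CPM, at 289 beside 331 for HSPG2 and 583 beside 683 for LAMA5.

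FN1, fibronectin, had 73 counts in starved knockdown cells, 247 in complete medium and 82 in starved control cells, a log2 ratio of −1.03 (−1.43 to −0.65). COL4A2, a basement membrane collagen, had 56, 197 and 76 counts and a ratio of −1.08 (−1.55 to −0.66). In FN1 and COL4A2 the starved control library was nearer to the starved knockdown library. AGRN and the integrin ITGA2 fell as well, at −1.23 (−1.68 to −0.81) and −1.25 (−1.73 to −0.81). VIM, an intermediate filament protein of the cytosol, was the highest member at 0.39.

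Genes for protein folding in the endoplasmic reticulum (ER), where secreted and membrane proteins are made, lay mostly below 0. Of 24 measured members of the list 3 fell, none rose, 3 lay above 0, and 14 intervals lay below 0. Over all 3876 genes 723 intervals lay below 0. The median was −0.44. SYVN1, the ubiquitin ligase HRD1 of ER-associated degradation, had 20 counts in starved knockdown cells, 102 in complete medium and 31 in starved control cells, a log2 ratio of −1.60 (−2.40 to −0.93). HSPA5, the chaperone BiP, had 276, 797 and 292 counts and a ratio of −0.81 (−1.01 to −0.61). P4HB, a disulfide isomerase, had 413, 1129 and 479 counts and a ratio of −0.73 (−0.89 to −0.56). In all 3 genes the starved control library lay beside the starved knockdown library. XBP1, a transcription factor of the unfolded protein response, was at 0.18 (−0.32 to 0.67). The median footprint ratio of the list was −0.10 over 22 measured members.

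**Figure D4:**
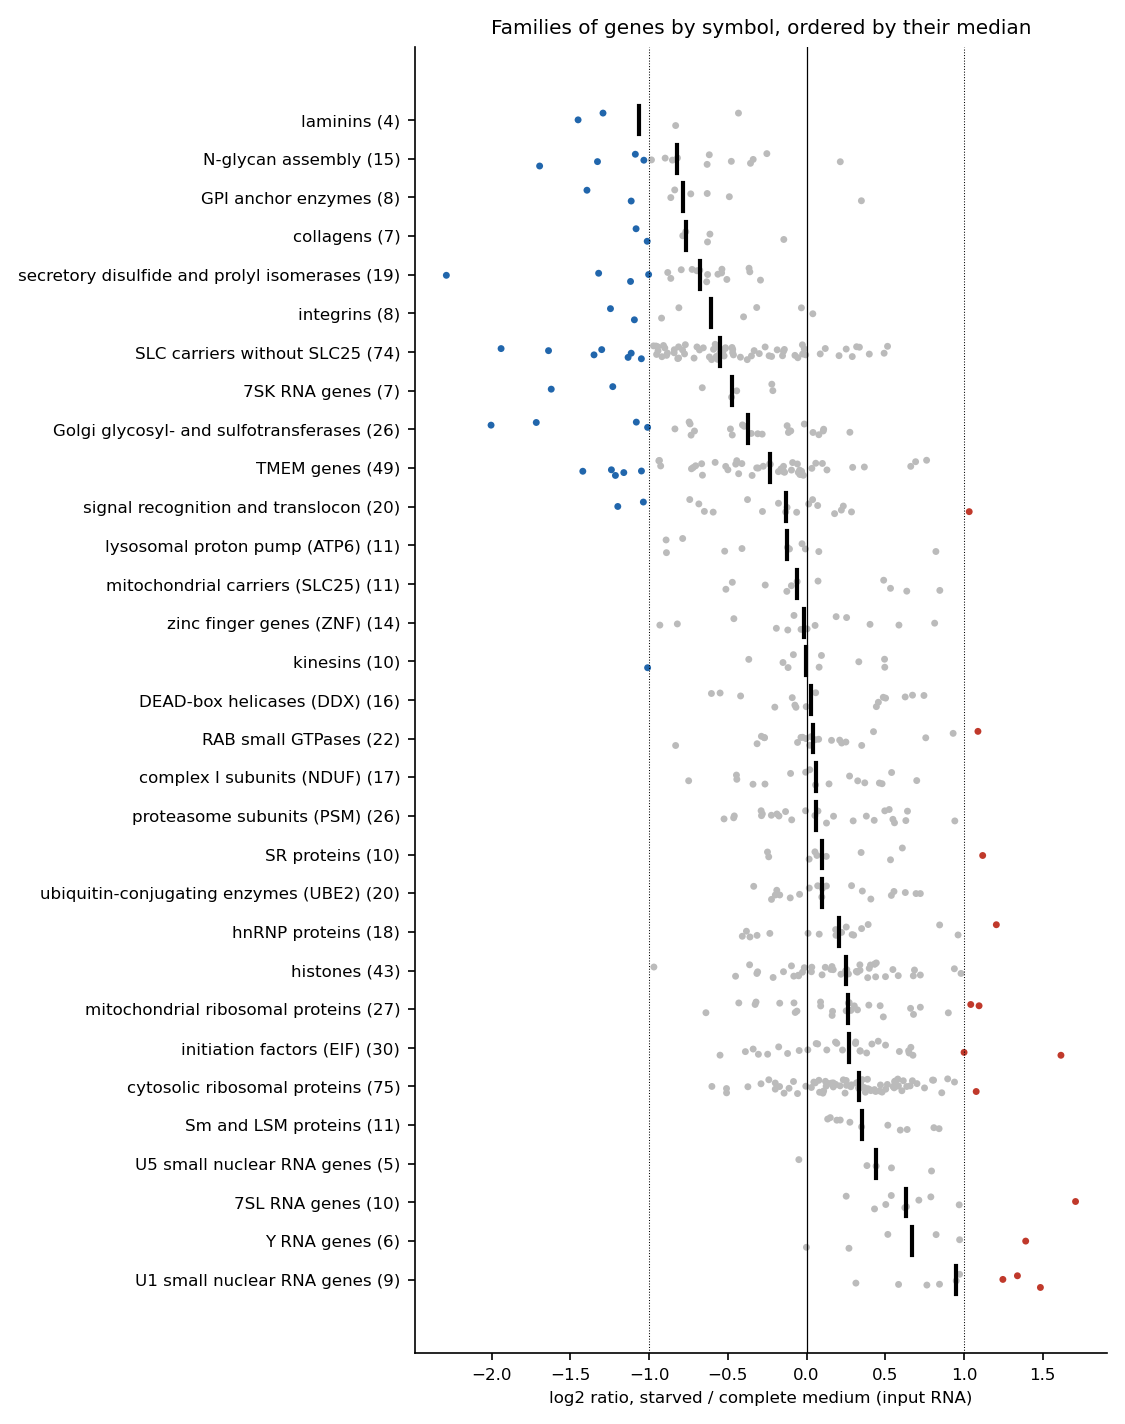
Log2 ratio of input RNA, starved over complete medium, for measured genes grouped by symbol into families of at least 4, ordered by median from the top. Points are genes (red called higher, blue called lower, grey neither) and black bars are medians; laminins, glycosylation enzymes, collagens and membrane carriers stand at the top, below 0, and small nuclear and 7SL RNA genes at the bottom, above 0.

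Gene families were then grouped by symbol. These groups were chosen after their values had been seen and are given as a description only. Of 74 measured solute carriers outside the mitochondrial SLC25 family, 64 lay below 0, 7 fell and none rose, with a median of −0.55. Among 11 SLC25 carriers, whose mRNAs encode inner mitochondrial membrane proteins, the median was −0.06. All 19 secretory disulfide isomerases, prolyl isomerases and collagen hydroxylases lay below 0, with a median of −0.68. The lowest was FKBP14, a collagen prolyl isomerase (chr7:30005923-30026702), with 8 counts in starved knockdown cells, 68 in complete medium and 24 in starved control cells, a log2 ratio of −2.29 (−3.63 to −1.30).

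Enzymes that build glycans and lipid anchors were also low. Of 15 genes of N-glycan assembly 14 lay below 0, 4 fell, and the median was −0.82, with OSTC alone above 0 at 0.21. Of 8 genes of the GPI anchor pathway 7 lay below 0. PIGO, which adds ethanolamine phosphate to the anchor (chr9:35088688-35096591), had 54 counts in starved knockdown cells, 236 in complete medium and 80 in starved control cells, a log2 ratio of −1.39 (−1.86 to −0.97). Of 26 Golgi glycosyl- and sulfotransferases 21 lay below 0. CHPF2 and XYLT2, which act in chondroitin and proteoglycan chain synthesis, had 10 counts against 69 and 16 against 89, ratios of −2.00 (−3.19 to −1.10) and −1.72 (−2.62 to −0.97).

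By contrast, proteasome subunit genes had a median of 0.06 over 26 genes, complex I subunits 0.06 over 17, RAB GTPases 0.04 over 22 and mitochondrial ribosomal proteins 0.27 over 27. Some families of the ER and other membranes were also less low. The median was −0.13 over 20 genes of signal recognition, translocon and signal peptidase, of which 12 lay below 0. It was −0.12 over 11 genes of the lysosomal proton pump, 9 below 0, and −0.23 over 49 TMEM genes, 40 below 0. All 11 Sm and LSM genes, whose products bind small nuclear and other RNAs, lay above 0, with a median of 0.35. Footprints of the low families were nearer to 0 than their input: the median footprint ratio was −0.10 over 61 solute carriers, −0.26 over 15 N-glycan genes and −0.22 over 18 isomerases. The difference between the assays was not tested, with 1 library of each.

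Genes of fatty acid synthesis and sterol sensing lay mostly below 0. FADS2 and SCD, desaturases embedded in the ER membrane, had log2 ratios of −0.87, with an interval that ended at −0.74, and −0.59 (−0.65 to −0.53). SCD had 3485 counts in starved knockdown cells, 8655 in complete medium and 1664 in starved control cells. FASN, the cytosolic fatty acid synthase, had 694, 666 and 671 counts and a ratio of 0.78 (0.63 to 0.94), and the cytosolic ACLY was at −0.05 (−0.24 to 0.13). ACACA, the cytosolic acetyl-CoA carboxylase, was at −0.13 (−0.53 to 0.26). No gene of the fatty acid list was called, and its median was −0.52 over 14 genes. Of these 2 lay above 0, with 8 intervals below 0 and 1 above.

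Among 17 measured cholesterol genes none was called, 2 had an interval above 0 and 7 below. SQLE, a membrane enzyme that oxidizes squalene, was at −0.93 (−1.26 to −0.62). IDI1, an isomerase outside that membrane, was at 0.74 (0.23 to 1.26). INSIG1 is itself an ER membrane protein, which retains the SREBP complex, and was at 0.80 (0.52 to 1.08). The membrane enzymes CYP51A1, FDFT1, LSS, MSMO1 and EBP had log2 ratios of 0.35, 0.32, 0.18, 0.15 and 0.15, each with an interval that included 0, and the cytosolic HMGCS1 was at −0.25 (−0.58 to 0.07). Enzymes of the membrane and of the cytosol thus lay on both sides of 0.

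MAP1LC3B had the firmest fall of any protein-coding gene. It encodes LC3B, the ubiquitin-like protein that is attached to autophagosome membranes, and lies at chr16:87392336-87404774. Input counts were 41 in starved knockdown cells, 337 in complete medium and 74 in starved control cells, a log2 ratio of −2.30 (−2.82 to −1.85). Both starved libraries were thus low. Footprint counts ran the other way, with 51 in starved knockdown cells and 23 in complete medium, a log2 ratio of 1.57 (0.85 to 2.36). MAP1LC3B has a near-identical copy, MAP1LC3B2, so reads they share are uncertain.

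Of the 24 measured members of the autophagy and lysosome list 8 had an interval below 0 and 1 above. LAMP1, a lysosomal membrane protein, was the other gene that fell, with 67 counts against 237 and a log2 ratio of −1.09 (−1.51 to −0.70). Short of 2-fold were the lysosomal proteins CTSA at −0.98 (−1.45 to −0.54), NPC1 at −0.85 (−1.22 to −0.51) and CTSB at −0.67 (−0.89 to −0.46). The autophagy receptor SQSTM1 was at 0.13 (−0.05 to 0.31), and RB1CC1, a subunit of the ULK1 kinase complex, was highest at 0.97 (0.18 to 1.79). The median was −0.14.

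Other deep falls were in single genes of varied function. LEMD2, an inner nuclear membrane protein (chr6:33771213-33789130), had 6 counts in starved knockdown cells, 69 in complete medium and 28 in starved control cells, a log2 ratio of −2.70 (−4.30 to −1.61). CTC1, a subunit of the telomere-binding CST complex (chr17:8224815-8248056), had 13, 113 and 37 counts and a ratio of −2.35 (−3.35 to −1.56). NOTCH3, a cell surface receptor (chr19:15159038-15200995), had 13, 102 and 36 counts and a ratio of −2.20 (−3.21 to −1.41). In these 3 genes the starved control library lay between the other libraries.

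MARVELD1 (chr10:97713730-97718150) had the lowest ratio but only 4 counts in starved knockdown cells against 52, and its interval ran from −4.91 to −1.54. ZC3HAV1, an antiviral zinc finger protein, had 10 counts against 77, and SLC12A4, a potassium-chloride cotransporter, 10 against 66. Their log2 ratios were −2.16 (−3.34 to −1.27) and −1.94 (−3.12 to −1.03). SLC45A4, a solute carrier, had 21 counts against 110, a ratio of −1.64 (−2.41 to −0.98).

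Among the remaining genes that rose, PROC stood out for its footprints. PROC encodes the anticoagulant protein C (chr2:127418427-127429242) and had 61 input counts in starved knockdown cells, 22 in complete medium and 93 in starved control cells, a log2 ratio of 2.17 (1.47 to 2.97). It had 0 footprint counts in all 3 footprint libraries, and a count of 0 allows up to 3 counts, or 3.25 to 6.24 CPM in these libraries. TCIM, a regulator of Wnt signalling, had 155 counts against 102, RRM2B, a p53-induced ribonucleotide reductase subunit, 48 against 25, and TCEA1, an elongation factor of RNA polymerase II, 52 against 28. Their log2 ratios were 1.32, 1.65 and 1.60, with no interval reaching 0.

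Genes of the death receptor pathway, which passes signals from cell surface receptors to caspases, were partly below the minimum: 7 of 23 were measured. TNFRSF10B, the TRAIL receptor DR5, had 73 counts in starved knockdown cells, 192 in complete medium and 105 in starved control cells, a log2 ratio of −0.67 (−1.08 to −0.28). TNFRSF10A, the receptor DR4, had 16, 48 and 31 counts and a ratio of −0.83 (−1.78 to −0.02), and TNFRSF1A was at −0.62 (−0.87 to −0.37). None of these receptors was called. BIRC3, described above, was the member that rose, and CFLAR, the caspase-8 inhibitor FLIP, was at 0.63 (0.03 to 1.24). FAS had 10 counts against 27, below the minimum, and CASP8 9 against 14.

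MAT2A, the known METTL16 target (chr2:85539168-85545281), had 77 counts in starved knockdown cells, 164 in complete medium and 154 in starved control cells, or 170, 219 and 270 CPM. Its log2 ratio was −0.36 (−0.78 to 0.03). None of the 7 measured genes of the methionine cycle list was called, and AMD1, which makes decarboxylated S-adenosylmethionine for polyamines, was highest at 0.70 (0.22 to 1.18). Of 9 measured m6A writers, readers and erasers none was called, from YTHDF1 at −0.57 to FMR1 at 0.79.

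Mitochondrially encoded mRNAs were lower without passing 2-fold. All 12 measured genes lay below 0, with 11 intervals below 0 and a median of −0.37. MT-ND1 was lowest, with 3543 counts in starved knockdown cells and 9244 in complete medium, a log2 ratio of −0.66 (−0.72 to −0.60). MT-ATP8 was highest at −0.08 (−0.21 to 0.04). Their share of all input counts was 10.3% in starved knockdown cells, 13.2% in complete medium and 8.65% in starved control cells. Both starved libraries were low, and nuclear genes of oxidative phosphorylation had a median of 0.14 over 43 measured members.

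Noncoding RNAs moved in both directions. MALAT1, a nuclear-retained long noncoding RNA (chr11:65497738-65506516), had 3143 counts in starved knockdown cells, 2167 in complete medium and 1615 in starved control cells, or 6929, 2894 and 2827 CPM. It rose by 1.26 on the log2 scale (1.18 to 1.34), while the starved control library was level with complete medium. NEAT1, another nuclear long noncoding RNA, was at −0.09 (−0.30 to 0.12). Small nuclear RNA genes held 4.05% of counts in starved knockdown cells, 2.57% in complete medium and 1.71% in starved control cells. The 2 starved libraries thus lay on either side of complete medium, and the cause was not tested.

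All 9 measured U1 genes lay above 0, with a median of 0.95, and RNU1-88P, a U1 copy, had 75 counts against 44. All 10 measured 7SL genes, which encode or derive from the RNA of the signal recognition particle, lay above 0, with a median of 0.63. The highest was RN7SL664P, with 50 counts against 25. Their summed share was 2.08% in starved knockdown cells, 1.40% in complete medium and 2.01% in starved control cells, so here both starved libraries were high. U1, 7SL and 7SK genes are families of near-identical copies, and the values of single copies are uncertain.

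Other noncoding genes fell. LIMD1-AS1, an antisense transcript (chr3:45678165-45688882), had 56 counts in starved knockdown cells, 362 in complete medium and 76 in starved control cells, a log2 ratio of −1.96 (−2.40 to −1.56). Reads of an antisense gene and its partner cannot be told apart here because a strand setting of the counting is not given in the sources used here. VTRNA1-3, a vault RNA (chr5:140726159-140726246), had 28, 201 and 40 counts and a ratio of −2.10 (−2.75 to −1.55). All 7 measured 7SK genes lay below 0, with a median of −0.48. RN7SKP185 was lowest, with 25 counts against 129.

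**Figure D5:**
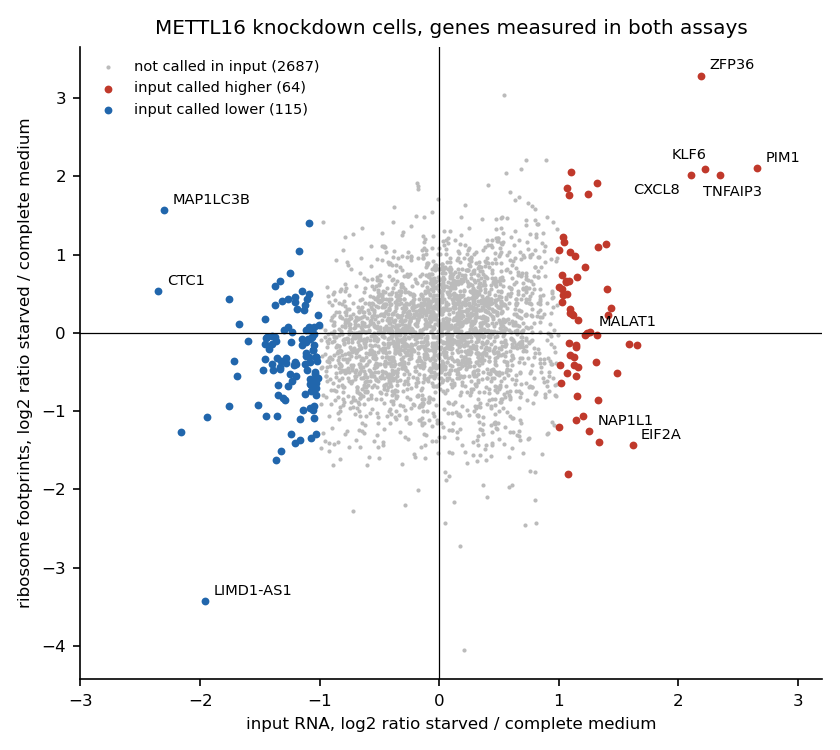
Footprint log2 ratio against input log2 ratio, starved over complete medium, for 2866 genes measured in both assays in METTL16 knockdown cells. Red points are the 64 genes called higher in input and blue points the 115 called lower; PIM1, CXCL8, KLF6, TNFAIP3 and ZFP36 lie high on both axes, and MAP1LC3B, EIF2A and NAP1L1 lie on opposite sides of 0.

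Input and footprint ratios were set side by side for the 2866 genes measured in both assays, of which 5.02% were called higher and 6.91% lower in footprints. Of the 64 of these genes called higher in input, 16 were called higher in footprints, which is 25% of the input genes and 11.1% of the 144 footprint genes, and 7 were called lower. Of the 115 called lower in input, 14 were called lower in footprints, 12.2% of the input genes and 7.07% of the 198 footprint genes, and 3 were called higher. The median footprint ratio was 0.25 for the first set, −0.33 for the second and 0.00 for all genes.

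ZFP36, CXCL8, KLF6 and PIM1, 4 of the genes that rose most in input, were high in both. ZFP36 had 68 footprint counts in starved knockdown cells and 9 in complete medium, a log2 ratio of 3.28 (2.34 to 4.54), and CXCL8 had 210 against 70, a ratio of 2.01 (1.62 to 2.43). KLF6 was at 2.09 (1.37 to 2.91) and PIM1 at 2.10 (1.14 to 3.27). The median footprint ratio of the NF-kB list was 1.01 over 14 measured members. LAMA5 and HSPG2 were low in both, at −0.86 (−1.16 to −0.57) and −0.92 (−1.35 to −0.52) in footprints.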

How the data were processed

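RNA and ribosome footprints were measured in 6 libraries of A549 cells, 1 per condition and assay. The deposited table holds raw counts per gene, which the authors made without normalization. Tools listed in the submitters' processing notes are featureCounts 2.0.1, STAR 2.7.5c, Bowtie2 2.2.5 and cutadapt 2.8, with build GRCh38. Per the labels' protocols, input pieces were size-selected on a gel and amplified by PCR. Intervals do not allow for PCR copies, since no identifiers of molecules are described, and they cover counting error only. The sources used here do not give parameters.

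Sample titles gave the shRNA, medium and assay of each group. Counts (3 lines of 1 broken record left out) were scaled by TMM (edgeR 4.0.16, R 4.3.3) over the 3 input libraries. Log2 ratios used a pseudocount of 0.5 and exact Clopper-Pearson 95% intervals on the split of the counts between both libraries (scipy 1.17.1, Python 3.11.15), and were tested on simulated data. Footprints were treated alike. Alternatives changed the scaling (DESeq2 1.42.0 size factors among them), minimum, pseudocount and calling rule. Coordinates and sequences come from RefSeq GRCh38.p14. Promoters were found for 3125 of 3772 protein-coding genes.

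Named genes were the 14 highest and 14 lowest called nuclear protein-coding genes by the interval end nearest 0, without replication-dependent histones, the 4 highest and 4 lowest other called genes, METTL16, MAT2A, and up to 3 highest and 3 lowest members of each of 47 lists. Other genes were named after their values were seen, and results of a few genes that the rule picks are left out here. The comparison and lists were chosen with earlier results of these data known. AU-rich elements in mRNA ends were not analysed here.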

Additional observations from a re-analysis of the deposited data

How the results depend on the processing

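The numbers of calls and the medians and counts of the lists were recomputed under 11 alternatives. Ratios of named genes were recomputed under those of scaling and pseudocount only. Families, promoter motifs, start sites, RNA classes and footprint values were not recomputed. No called gene that was still measured turned its sign under any alternative, but this says little about how firm the calls are. Calls start at 2-fold, and alternatives of the minimum and calling rule leave every ratio as it is. No scaling moved the median of all genes by over 0.1, too little to turn a called gene. With DESeq2 size factors, the largest shift, 259 of the 278 calls remained, with 98 genes higher and 186 lower. A pseudocount of 2 left 245. The numbers called depended on the minimum of counts and the calling rule. A minimum mean of 10 gave 458 higher and 434 lower genes, a mean of 100 gave 16 and 33, and no minimum gave 779 and 564. A call at 1.5-fold gave 485 and 548, and an interval end past 2-fold 11 and 15. The cause was not tested. At a minimum of 100 the medians of 4 lists moved by more than their counting error: the autophagy and lysosome list to −0.65 over 11 genes, epithelial markers to −0.25 over 6, and mTORC1 and amino acid sensing to −0.80 and snoRNA hosts to 0.91, each then 1 gene. No paired analysis was possible because each condition has 1 library. Leaving out a library leaves no comparison. Depth limits all of this: a gene with the median counts has an interval 1.14 log2 units wide, and differences between cultures were not measured.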

Other observations

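Apoptosis genes outside the receptor pathway were few but included BBC3 and PMAIP1, which encode the BH3-only proteins PUMA and NOXA. BBC3 had 45 counts in starved knockdown cells, 32 in complete medium and 36 in starved control cells, a log2 ratio of 1.21 (0.53 to 1.92). PMAIP1 had 41, 28 and 21 counts and a ratio of 1.27 (0.54 to 2.02). The other 7 measured members of the intrinsic apoptosis list were not called. CDKN1A and MDM2, p53 targets, were at 0.16 and 0.19.

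RHEB, the GTPase that activates mTORC1, rose with 41 counts against 25, a log2 ratio of 1.43 (0.68 to 2.22), and RPTOR, the mTORC1 subunit that recruits substrates, fell with 17 against 59, a ratio of −1.04 (−1.94 to −0.27). The call of RPTOR ended with a pseudocount of 2. The list of amino acid sensing and mTORC1 had 13 measured members of 40 and a median of −0.13. Cytosolic heat shock and folding genes had a median of 0.34 over 21 members with none called, and NRF2 targets 0.19 over 28 with none called. Replication-dependent histones had a median of 0.25 over 36 members, also with none called.

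MT2A, a metallothionein that binds zinc and copper, had 46 counts in starved knockdown cells, 34 in complete medium and 147 in starved control cells, a log2 ratio of 1.15 (0.49 to 1.84), so the starved control library was the high one. The U4 gene RNU4-2, singled out after its values were seen, had 3563, 3446 and 1516 counts and a ratio of 0.77 (0.70 to 0.84). U6 genes, which include the known METTL16 substrate, held 602, 1142 and 457 counts summed over 1354 copies, or 1327, 1525 and 800 CPM, with 4 copies past the minimum.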
